A study of Mus musculus with 4 samples.

Results

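The genes described here encode the neuropeptide system of the hippocampus. They comprise 17 peptide precursors, 1 peptide-binding protein, 5 granins, 4 processing genes and 18 receptors, named by symbol, and all 45 were found among the 22609 gene symbols of the count files. Neuropeptides are cut from larger precursors inside dense-core vesicles. The convertases encoded by Pcsk1 and Pcsk2 cleave next to paired basic residues, carboxypeptidase E trims the ends, and granins help to form the vesicles and yield peptides of their own. The peptides act on G protein-coupled receptors, and in the hippocampus somatostatin, neuropeptide Y, cholecystokinin and VIP mark classes of GABAergic interneurons.

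RNA sequencing was performed on hippocampi of female mice of 2 genotypes. GFAP-ARO-KO mice (2 libraries) lack aromatase, the Cyp19a1 product that makes estrogen, in astrocytes, where Cre is driven by the GFAP promoter, which is known to be active in some neural progenitors too. FLOX-control mice (2 libraries), named for the floxed gene, served as the comparison. Mice of both genotypes were ovariectomized 1 week beforehand and had both common carotid arteries clipped for 20 min, with 24 h of reperfusion. There was no sham group, so a difference in the response to ischemia and one that was present before it cannot be told apart. For strain, age and the number of animals per library, nothing is stated, so the p-values measure only the spread between these libraries, which may be technical.

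The knockout libraries held 34878375 and 27930696 reads in genes, and the control libraries 33495548 and 33235564. Cyp19a1 gave 1 and 9 reads in the knockouts and 3 and 2 in the controls, too few to test or to check the genotype labels. Markers of hippocampal fields were present in all 4 libraries. The dentate list summed to 353 and 384 CPM in the knockouts, against 283 and 250.4 CPM in the controls, and the CA1 list to 796 and 802 CPM in the knockouts, against 805 and 856 CPM in the controls.

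Many neuropeptide genes are known targets of the cyclic AMP pathway through the CRE, a binding site for CREB. The palindrome TGACGTCA was therefore searched on both strands in the 250 bases before each start in RefSeq's promoter table (GRCm38.p6), which matched 37 of the 45 genes. Crh, Cpe, Galr1, Grp, Oprk1, Penk, Sstr1 and Vgf were not matched. The palindrome stood before 6 of the 37 genes (16.2%), and before 1.77% of all 27025 genes in the table. Of these 6 genes, 1 changed between the genotypes (Pcsk1, described below) and 5 did not pass. The stretches around these palindromes are shown to place the motif in each of the 6 promoters, with the palindrome in capitals. The remaining matched genes lacked it in this window.
Pcsk1 (GRCm38.p6, chr13:75089723-75089842, plus strand): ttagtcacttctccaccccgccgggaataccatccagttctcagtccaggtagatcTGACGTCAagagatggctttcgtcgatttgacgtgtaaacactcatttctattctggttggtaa
Scg2 (GRCm38.p6, chr1:79440031-79440150, minus strand): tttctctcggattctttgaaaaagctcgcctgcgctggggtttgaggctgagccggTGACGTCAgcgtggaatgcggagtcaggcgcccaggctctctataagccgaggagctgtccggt
Chgb (GRCm38.p6, chr2:132781514-132781633, plus strand): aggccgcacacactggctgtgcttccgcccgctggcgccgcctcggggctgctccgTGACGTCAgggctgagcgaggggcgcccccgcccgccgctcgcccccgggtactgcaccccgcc
Sst (GRCm38.p6, chr16:23890845-23890964, minus strand): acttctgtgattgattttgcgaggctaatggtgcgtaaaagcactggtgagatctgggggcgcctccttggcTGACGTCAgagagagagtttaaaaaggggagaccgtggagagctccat
Cartpt (GRCm38.p6, chr13:99900732-99900851, minus strand): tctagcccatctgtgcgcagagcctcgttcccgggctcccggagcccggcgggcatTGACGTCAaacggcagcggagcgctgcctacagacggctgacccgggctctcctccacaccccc
Sstr2 (GRCm38.p6, chr11:113619207-113619326, plus strand): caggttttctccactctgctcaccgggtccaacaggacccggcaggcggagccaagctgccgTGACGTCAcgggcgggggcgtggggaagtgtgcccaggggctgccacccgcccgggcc

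The shorter core TGACG, which every palindrome also contains, was found before 21 of the 37 genes (56.8%), and before 19.8% of all genes. It stood before 5 of the 12 matched genes that changed and before 16 of the 25 that did not pass. An AP-1 type motif, TGANTCA, was found before 0 of the 12 and 3 of the 25, and before 7.82% of all genes. Besides Pcsk1, the genes with the core that fell were Trh, Chga, Adcyap1 and Tacr3. Stretches of Trh and Chga are shown with the core in capitals; in the Trh stretch it lies on the other strand and reads CGTCA. These matches describe the letters only, and binding was not measured.
Trh (GRCm38.p6, chr6:92244715-92244774, minus strand): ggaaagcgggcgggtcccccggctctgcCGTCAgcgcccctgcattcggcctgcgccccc
Chga (GRCm38.p6, chr12:102554869-102554928, plus strand): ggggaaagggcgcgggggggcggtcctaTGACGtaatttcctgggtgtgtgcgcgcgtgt

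All 45 genes passed the filter on low counts, and 13 of them (28.9%) had a Benjamini-Hochberg adjusted p under 0.05 in edgeR's quasi-likelihood test, which gives all adjusted p-values below unless another tool is named. Of all 15011 genes tested, 20.4% passed. The knockout was lower for 11 of the 45 (24.4%), against 11.0% of all genes tested, and higher for 2 (4.44%), against 9.39% of all. The 45 were chosen with earlier results of these data known, so these shares cannot show that such genes differ from others. The excess of lower genes also depended on single libraries. As a share, it nearly vanished when the second knockout was dropped and was small when the first control was dropped. Dropping either of the other libraries kept it. Galanin, thyrotropin-releasing hormone, PACAP, gastrin-releasing peptide and neuropeptide Y mRNAs fell, as did those of chromogranin A, the convertase gene Pcsk1 and the receptors Npy2r, Tacr3, Oprm1 and Oprd1. The PACAP receptor gene Adcyap1r1 and the peptide gene Nmb rose. The median log2 fold change of the 45 was -0.14, against -0.000809 over all genes tested. Both knockout libraries were below both controls for 20 of the 45 (44.4%, against 32.8% of all genes), and above both for 10 (22.2%, against 32.0%). In whole tissue, fewer cells of a type and less RNA per cell cannot be told apart.

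**Figure D1:**
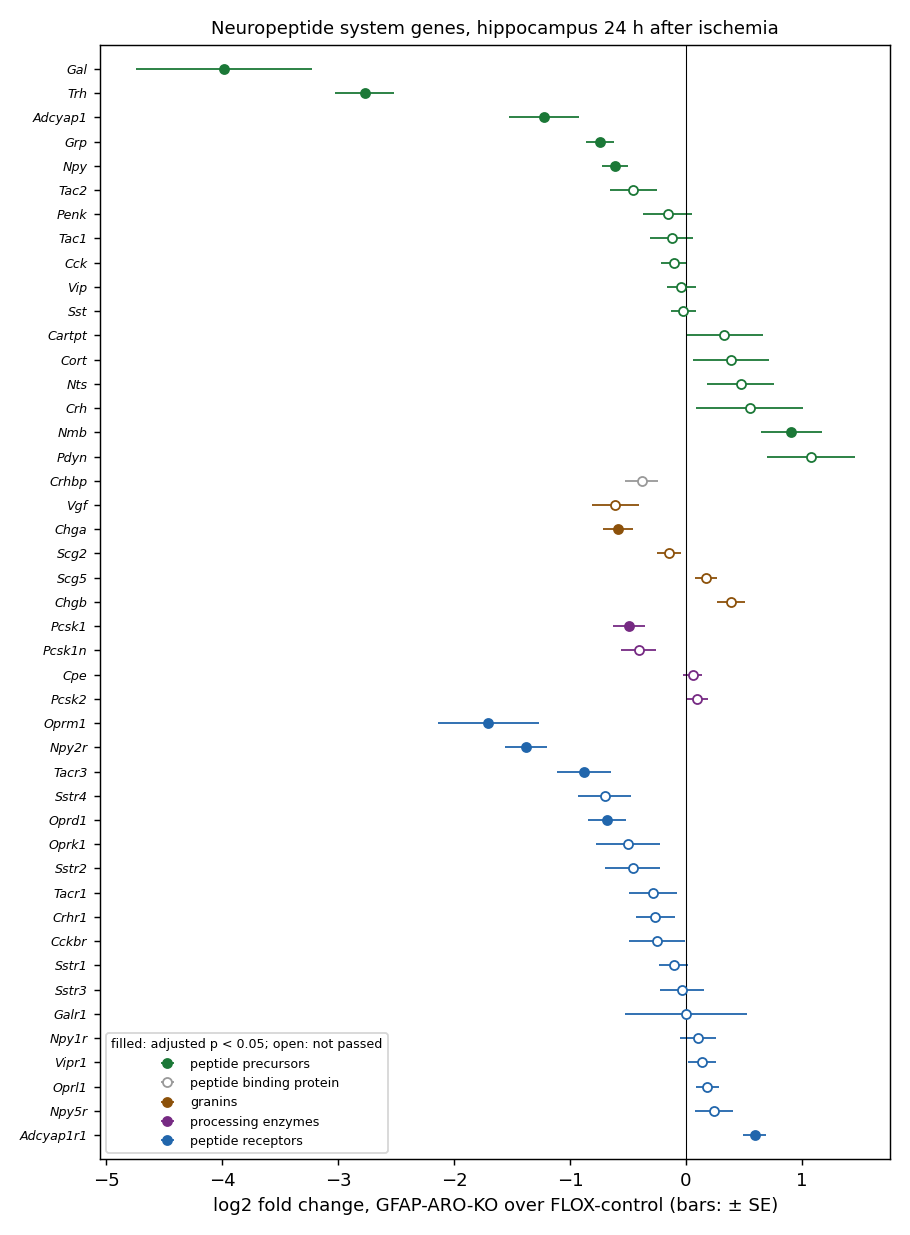
Log2 fold change of GFAP-ARO-KO over FLOX-control (x axis, ± SE) for the 45 genes, grouped by role and ordered within each role. Filled points passed an adjusted p of 0.05, and Gal at -3.98 and Trh at -2.77 lie farthest from 0.

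Levels were compared between genes as RPKM, read counts scaled by exon length and library size. By the mean over the 4 libraries Cpe, which encodes carboxypeptidase E, was the highest at 1498 in the knockouts and 1439 in the controls. Sst followed, the gene of somatostatin, at 352 in the knockouts and 358 in the controls, and then Chgb, which encodes chromogranin B, at 354 in the knockouts and 270.5 in the controls. Cck, the cholecystokinin gene, was at 250.2 in the knockouts and 269 in the controls. Among receptors Adcyap1r1 was highest, with 45.7 in the knockouts and 30.3 in the controls, and Oprm1, the mu opioid receptor gene, was lowest by the mean over the 4 libraries, with 0.0449 in the knockouts and 0.152 in the controls. In the controls alone Galr1 was lower, at 0.127. The genes that fell were spread over the range: Npy and Chga ranked 7 and 8 of 45 on this scale while Trh, Adcyap1, Tacr3 and Oprm1 ranked 33, 34, 40 and 45.

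**Figure D2:**
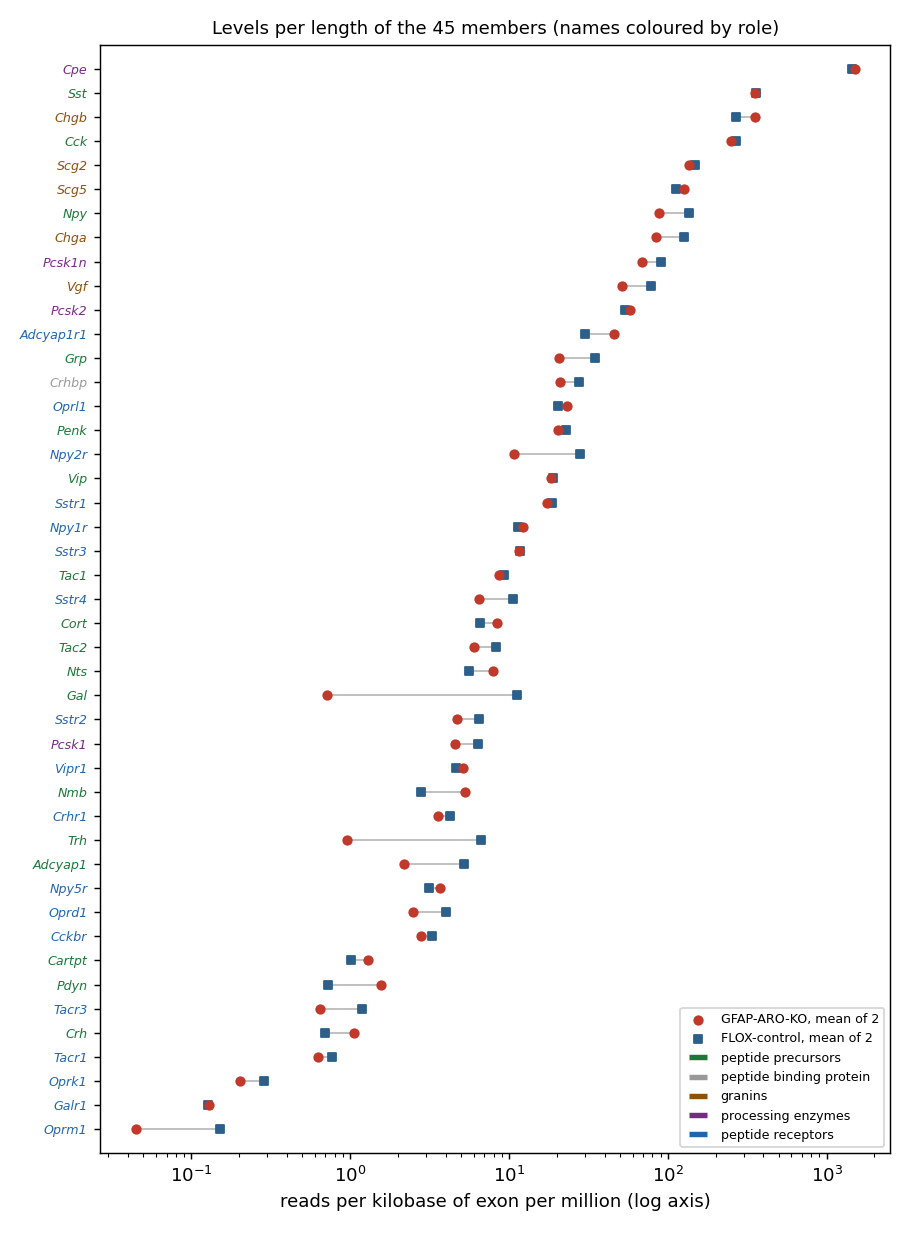
Mean RPKM (x axis, log scale) of each of the 45 genes in GFAP-ARO-KO (circles) and FLOX-control libraries (squares), 2 libraries each. Names are coloured by role, and the gray line joins the 2 group means of a gene; the longest belongs to Gal, at 0.714 in the knockouts and 11.3 in the controls.

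Of the 17 peptide precursors, 5 fell, 1 rose and 11 did not pass. Among all genes tested, 11.0% fell and 9.39% rose. Their summed level was 612 and 592 CPM in the knockouts, against 717 and 647 CPM in the controls, of which Cck made up 34.3%. Trh encodes thyrotropin-releasing hormone (chromosome 6, 92192055 to 92194644, minus strand, mm9). It gave 57 and 29 reads in the knockouts and 290 and 321 in the controls, or 1.62 and 1.03 CPM against 8.66 and 9.82 CPM. Both knockout libraries lay far below both controls, and Trh fell by 2.77 ± 0.26 (log2 scale, ± SE; adjusted p = 0.00136), 6.81-fold. Leaving out any library kept this call, with log2 fold changes of -3.16 to -2.50.

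Gal encodes galanin, a peptide of injured and stressed neurons (chromosome 19, 3409919 to 3414472, minus strand, mm9). There were 17 and 15 Gal reads in the knockouts and 402 and 133 in the controls, or 0.484 and 0.532 CPM against 12.01 and 4.07 CPM. The groups did not overlap, and the controls lay far apart from each other. Gal fell by 3.98 ± 0.76 (adjusted p = 0.0210), 15.8-fold, and did not pass without the first knockout library (adjusted p = 0.291) or the second (0.154). Omitting the first control library gave a log2 fold change of -2.99, and omitting the second gave -4.56.

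Adcyap1 encodes PACAP, a peptide that raises cyclic AMP (chromosome 17, 93598762 to 93604825, plus strand, mm9). It stood at 5.70 and 3.44 CPM in the knockouts, against 13.1 and 8.50 CPM in the controls. The second library of each group was the lower one, and the groups did not overlap. Adcyap1 fell by 1.22 ± 0.30 (adjusted p = 0.0316). Omitting the first control raised the adjusted p to 0.159, and omitting the second knockout library to 0.0802.

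Grp, the gene of gastrin-releasing peptide (chromosome 18, 66032474 to 66046232, plus strand, mm9), was at 22.2 and 21.8 CPM in the knockouts and 39.2 and 34.2 CPM in the controls. The knockout values were nearly equal and below both controls. Grp fell by 0.74 ± 0.12 (adjusted p = 0.00854, or 0.0776 with the first control library omitted). Npy encodes neuropeptide Y, which is released by interneurons and dampens excitatory transmission (chromosome 6, 49772709 to 49779506, plus strand, mm9). It averaged 50.1 ± 4.62 CPM in the knockouts and 76.5 ± 3.84 CPM in the controls (SD, n = 2 each), with libraries at 53.4 and 46.8 CPM against 79.2 and 73.8 CPM. Both knockout values lay below both controls. Npy fell by 0.61 ± 0.11 (adjusted p = 0.0111, or 0.0790 with the first control library omitted).

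Nmb, the gene of neuromedin B, a bombesin-like peptide (chromosome 7, 88047114 to 88049962, minus strand, mm9), was the precursor that rose. Its values were 3.93 and 4.47 CPM in the knockouts and 1.79 and 2.66 CPM in the controls, without overlap. The rise of 0.91 ± 0.26 (adjusted p = 0.0481) lay close to the threshold. It was lost in 8 of the 13 alternatives, with adjusted p from 0.0522 with non-robust estimation to 0.292 without the first control library. An exon of Nmb overlaps Sec11a on the same strand, with which it could share reads; Sec11a had a measured log2 fold change -0.02 ± 0.13, with adjusted p = 0.939.

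**Figure D3:**
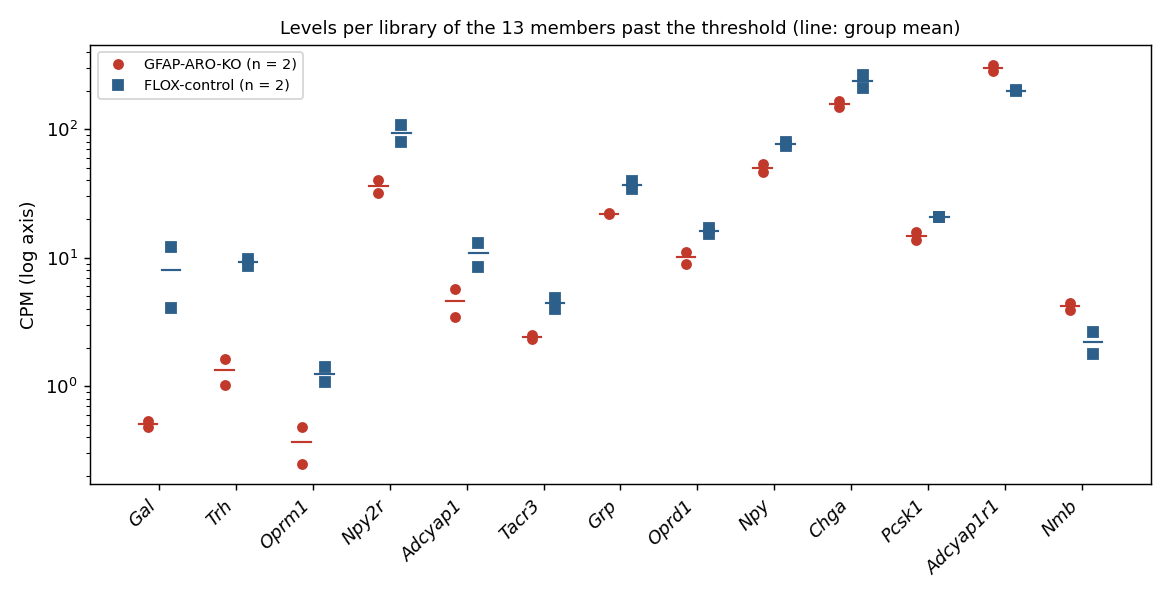
CPM of each library (y axis, log scale) for the 13 genes that passed, ordered by log2 fold change, with GFAP-ARO-KO circles left of FLOX-control squares and a line at each group mean. The groups do not overlap for any of the 13, which is likely for genes chosen by a low adjusted p. Among all genes tested, both knockouts lie below both controls for 32.8% and above both for 32.0%. For Grp the knockout values are 22.2 and 21.8 CPM.

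Apart from Npy, the peptides that label interneuron classes did not pass. Sst was at 228 and 193 CPM in the knockouts and 214 and 215 CPM in the controls (log2 fold change -0.02 ± 0.11, with adjusted p = 0.905), and the related precursor Cort, whose product cortistatin binds the same receptors, was at 6.95 and 4.50 against 3.20 and 5.69 CPM (log2 fold change 0.39 ± 0.33, with adjusted p = 0.434). Vip had 26.7 and 29.6 CPM in the knockouts and 30.5 and 27.3 CPM in the controls (log2 fold change -0.04 ± 0.13, with adjusted p = 0.853). For Cck the values were 202 and 223 CPM against 243 and 213 CPM (log2 fold change -0.11 ± 0.11, with adjusted p = 0.518). The groups overlapped for all of these 4 genes. Of the interneuron markers, 1 of 12 rose (9.39% of all genes tested did), 1 fell (against 11.0%) and 10 did not pass. Their sum was 1703 and 1669 CPM in the knockouts, against 1529.8 and 1629 CPM in the controls.

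The opioid and tachykinin precursors did not pass either. Penk, the gene of the enkephalins, was at 37.3 and 29.4 CPM in the knockouts and 44.6 and 29.8 CPM in the controls (log2 fold change -0.16 ± 0.21, with adjusted p = 0.633). Pdyn, the gene of the dynorphins, which dentate granule cells make, was at 3.10 and 5.89 against 1.64 and 2.54 CPM. Both Pdyn values of the knockout lay above both controls, with a log2 fold change 1.08 ± 0.38, with adjusted p = 0.0860, and the gene passed without the first knockout library (log2 fold change 1.49, adjusted p = 0.00267) or with the replicate number as a block (adjusted p = 0.0171). Of 6 dentate granule cell markers 4 rose (9.39% of all genes tested did), with the sums given above. Their part in the Pdyn values was not tested. Tac1, the substance P precursor gene, was at 8.004 and 9.79 CPM in the knockouts and 10.5 and 8.75 CPM in the controls, which overlapped (log2 fold change -0.12 ± 0.19, with adjusted p = 0.676). Tac2, the neurokinin B gene, was at 4.36 and 3.79 CPM in the knockouts and 5.88 and 5.32 CPM in the controls, without overlap (log2 fold change -0.45 ± 0.20, with adjusted p = 0.149).

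The remaining precursors were low. Crh, corticotropin-releasing hormone, was at 0.968 and 1.81 CPM in the knockouts and 1.22 and 0.612 CPM in the controls, which overlapped (log2 fold change 0.55 ± 0.46, with adjusted p = 0.427). Nts, the neurotensin gene, was at 6.67 and 11.9 against 7.23 and 5.94 CPM (log2 fold change 0.47 ± 0.29, with adjusted p = 0.279), with the first knockout between the controls. It passed without the first knockout library (log2 fold change 0.85, adjusted p = 0.00662). Cartpt, which encodes the CART peptides, stood at 1.03 and 1.24 CPM in the knockouts and 0.896 and 0.887 CPM in the controls (log2 fold change 0.33 ± 0.33, with adjusted p = 0.508). Crhbp, the secreted protein that binds corticotropin-releasing hormone, was at 39.4 and 31.6 CPM in the knockouts and 49.5 and 43.01 CPM in the controls. Its groups did not overlap (log2 fold change -0.38 ± 0.14, with adjusted p = 0.0967), and it passed only without the first knockout library (log2 fold change -0.55, adjusted p = 0.00903).

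Of the 5 granin genes, 1 fell (11.0% of all genes tested did) and 4 did not pass. Chga, chromogranin A (chromosome 12, 103793179 to 103803237, plus strand, mm9), was at 166 and 149.8 CPM in the knockouts and 263 and 209 CPM in the controls. Both knockout values were below both controls, and Chga fell by 0.58 ± 0.13 (adjusted p = 0.0213). It no longer passed with the first control omitted (adjusted p = 0.137) or the second knockout library (0.0634). Chgb, chromogranin B, lay on the other side, at 1076 and 862 CPM in the knockouts and 713 and 769 CPM in the controls, short of the threshold (log2 fold change 0.39 ± 0.12, with adjusted p = 0.0596). Chgb did pass without the second knockout library (log2 fold change 0.55, adjusted p = 0.0141), with DESeq2 (0.0190) and with upper-quartile scaling (0.0488).

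Vgf, an activity-regulated granin and growth factor target, was at 159.8 and 102 CPM in the knockouts and 208 and 191 CPM in the controls. The second knockout library was the lowest, and the threshold was missed (log2 fold change -0.61 ± 0.20, with adjusted p = 0.0810). Without the first knockout library Vgf was at -0.97 (adjusted p = 1.24e-04); it also passed with DESeq2 (0.00724) and with the replicate number as a block (0.0117). Scg2, the secretogranin II gene, had 349.7 and 323 CPM in the knockouts and 396 and 346 CPM in the controls (log2 fold change -0.14 ± 0.10, with adjusted p = 0.360). Scg5, which encodes the PCSK2 chaperone 7B2, had 193 and 205 CPM against 183 and 169.7 CPM (log2 fold change 0.18 ± 0.10, with adjusted p = 0.225). The granins summed to 1944 and 1641 CPM in the knockouts, against 1763 and 1685 CPM in the controls.

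The convertase genes differed in their calls. Pcsk1 (chromosome 13, 75227274 to 75269946, plus strand, mm9), whose promoter carries the palindrome shown above, was at 15.8 and 13.8 CPM in the knockouts and 20.8 and 20.7 CPM in the controls. It fell by 0.49 ± 0.14 (adjusted p = 0.0436), with the controls nearly equal and above both knockouts. This call was lost without either control (adjusted p = 0.219 and 0.217), without the second knockout (0.0870), with upper-quartile scaling (0.0506) and with the replicate number as a block (0.0518). Pcsk2 was at 465 and 445 CPM in the knockouts and 445 and 408 CPM in the controls, without overlap (log2 fold change 0.09 ± 0.09, with adjusted p = 0.498). Whether the 2 fold changes differ was not tested.

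Pcsk1n encodes proSAAS, an inhibitor of the PCSK1 enzyme, and was at 159.9 and 141 CPM in the knockouts and 229 and 169.8 CPM in the controls (log2 fold change -0.41 ± 0.15, with adjusted p = 0.102). It passed with the second control omitted (log2 fold change -0.61, adjusted p = 0.0450), with DESeq2 (0.0456) and with the replicate number as a block (0.0379). Cpe, the most abundant of the 45, stood at 3089 and 3165 CPM against 2918 and 3089.6 CPM, and the groups overlapped (log2 fold change 0.06 ± 0.08, with adjusted p = 0.645).

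Of the 18 receptor genes, 4 fell (11.0% of all genes tested did), 1 rose (against 9.39%) and 13 did not pass. The receptor sum was 636 and 641 CPM in the knockouts, against 602 and 613 CPM in the controls, of which Adcyap1r1 made up 40.2%. Npy2r encodes the Y2 receptor, a mainly presynaptic, inhibitory receptor of neuropeptide Y (chromosome 3, 82342305 to 82352008, minus strand, mm9). It was at 40.05 and 31.9 CPM in the knockouts and 79.1 and 108 CPM in the controls, and fell by 1.38 ± 0.18 (adjusted p = 0.00450), 2.60-fold. The call held with each library left out in turn, with log2 fold changes of -1.58 to -1.14. Npy1r and Npy5r, the genes of the Y1 and Y5 receptors, are divergent neighbors on chromosome 8, 9327 bases apart in the mm9 annotation. Npy1r was at 31.2 and 42.1 CPM in the knockouts and 34.7 and 33.4 CPM in the controls (log2 fold change 0.10 ± 0.15, with adjusted p = 0.671). Npy5r was at 8.52 and 8.62 against 7.26 and 7.19 CPM, with both knockouts above both controls (log2 fold change 0.25 ± 0.16, with adjusted p = 0.318).

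Adcyap1r1 encodes PAC1, the receptor of PACAP (chromosome 6, 55401972 to 55451445, plus strand, mm9), and is known in both neurons and astrocytes. It rose by 0.59 ± 0.10 (adjusted p = 0.00810), with 285 and 318 CPM in the knockouts against 203 and 197 CPM in the controls, 1.51-fold. The values within each group were close, and without the second control library the adjusted p was 0.0569. Its ligand gene Adcyap1 moved the other way, as given above. Vipr1, the VPAC1 receptor gene, which binds both VIP and PACAP, was at 30.2 and 26.98 CPM in the knockouts and 25.8 and 26.00 CPM in the controls (log2 fold change 0.14 ± 0.12, with adjusted p = 0.434).

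Of the 4 opioid receptor genes, 2 fell (11.0% of all genes tested did). Oprd1, the delta receptor (chromosome 4, 131666641 to 131700401, minus strand, mm9), was at 11.1 and 9.01 CPM in the knockouts and 17.1 and 15.4 CPM in the controls. It fell by 0.68 ± 0.16 (adjusted p = 0.0272) and no longer passed with the first control omitted (adjusted p = 0.179), nor with the second control (0.101) or second knockout (0.0519). Oprm1, the mu receptor (chromosome 10, 3308332 to 3588035, minus strand, mm9), gave only 17 and 7 reads in the knockouts and 36 and 46 in the controls. The groups did not overlap, and Oprm1 fell by 1.70 ± 0.44 (adjusted p = 0.0332), with a log2 fold change of -2.30 when the first knockout library was omitted. The call was lost with the first control omitted (adjusted p = 0.0749), with the second omitted (0.160), with the second knockout omitted (0.0827) and with DESeq2 (0.0931). Its exons overlap Ipcef1 on the opposite strand, and the strand setting is unknown here; Ipcef1 had a measured log2 fold change -0.09 ± 0.16, with adjusted p = 0.700. Oprk1, the kappa receptor that dynorphins activate, was at 1.42 and 1.35 CPM in the knockouts and 1.88 and 2.05 CPM in the controls (log2 fold change -0.50 ± 0.28, with adjusted p = 0.231). Oprl1, the nociceptin receptor gene, was at 85.4 and 88.6 against 79.6 and 73.5 CPM (log2 fold change 0.18 ± 0.10, with adjusted p = 0.217).

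Tacr3, the neurokinin B receptor gene (chromosome 3, 134491971 to 134597545, plus strand, mm9), was at 2.34 and 2.52 CPM in the knockouts and 4.003 and 4.89 CPM in the controls. Tacr3 fell by 0.88 ± 0.23 (adjusted p = 0.0373), and no longer passed with the first control omitted (adjusted p = 0.106), without the second (0.243) or with DESeq2 (0.0767). Tacr1, which encodes the substance P receptor, had 4.44 and 3.69 CPM in the knockouts and 5.14 and 4.83 CPM in the controls (log2 fold change -0.29 ± 0.21, with adjusted p = 0.358).

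None of the 4 somatostatin receptor genes passed. In edgeR only Sstr4 of these 4 lay below an unadjusted p of 0.05, while limma-voom passed 0 and DESeq2 passed 1 (Sstr4, adjusted p = 0.0217). Sstr4 was at 17.1 and 11.1 CPM in the knockouts and 20.1 and 26.2 CPM in the controls (log2 fold change -0.70 ± 0.23, with adjusted p = 0.0710, and 0.00339 without the first knockout library, where the log2 fold change was -1.05). Sstr2 was at 10.1 and 9.68 CPM in the knockouts and 16.8 and 10.4 CPM in the controls, where only the first control stood apart (log2 fold change -0.46 ± 0.23, with adjusted p = 0.200). Sstr1 had 38.3 and 32.9 CPM in the knockouts against 40.5 and 36.1 CPM in the controls, and Sstr3 had 53.9 and 36.4 against 43.3 and 49.5 CPM; both overlapped between the groups (adjusted p = 0.589 and 0.917). The other receptors also did not pass. Crhr1, the main receptor of corticotropin-releasing hormone, was at 9.001 and 8.55 CPM in the knockouts and 11.4 and 9.64 CPM in the controls (log2 fold change -0.26 ± 0.17, with adjusted p = 0.298). Cckbr, the brain cholecystokinin receptor gene, was at 6.84 and 8.58 against 11.02 and 7.16 CPM (log2 fold change -0.25 ± 0.24, with adjusted p = 0.501). Galr1, a galanin receptor gene, gave only 11 and 12 reads in the knockouts and 9 and 15 in the controls (log2 fold change 0.00 ± 0.53, with adjusted p = 0.997).

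With each library left out in turn, all 13 genes that passed kept their sign, and 2 of them, Trh and Npy2r, passed all 4 times. Fewest calls were left without the first control library, when 4 of the 13 passed (Gal, Trh, Npy2r and Adcyap1r1). Without the second knockout library 6 passed, without the second control 7, and without the first knockout 12. These fits assume that the lone library of a group varies like the other group.

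**Figure D4:**
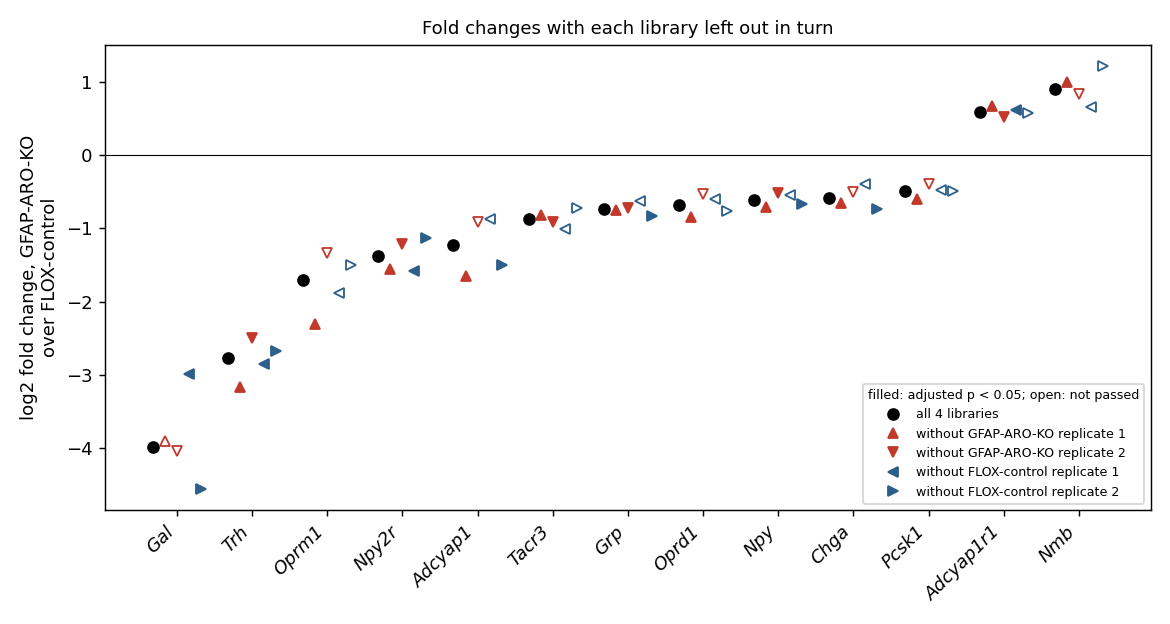
Log2 fold change (y axis) of the 13 genes that passed, with all 4 libraries (black circles) and with each library left out in turn (triangles; filled where the adjusted p is under 0.05). All values of a gene lie on one side of 0, and Trh and Npy2r have filled triangles throughout.

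Among other genes of the neuropeptide system, of which 82 of 115 could be tested, 7 rose (8.54%) and 9 fell (11.0%), shares near the 9.39% and 11.0% of all genes tested. Of the 15 tested other precursors, 1 rose and 2 fell. Agt, the angiotensinogen gene, which astrocytes express, was at 123 and 79.7 CPM in the knockouts and 33.9 and 30.99 CPM in the controls, and rose by 1.64 ± 0.20 (adjusted p = 0.00456). Ucn2, the urocortin 2 gene, gave very few reads, 1 and 1 in the knockouts against 19 and 13 in the controls. It fell (adjusted p = 0.00946), with a ratio of knockout to control of 0.0653 and a 95% counting interval of 0.00758 to 0.256. It no longer passed with the first control omitted (0.0630) or with DESeq2 (0.0587). Pnoc, which encodes the nociceptin precursor and so the ligand of Oprl1, was at 9.29 and 10.2 CPM in the knockouts and 17.4 and 13.1 CPM in the controls, and fell by 0.65 ± 0.18 (adjusted p = 0.0429). That call was lost with each library left out (adjusted p from 0.0538 to 0.328) and with limma-voom (0.0524).

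Of 16 other granule and processing genes, 2 rose and 2 fell. Cadps, which primes dense-core vesicles for release, fell by 0.61 ± 0.11 (adjusted p = 0.00947, or 0.0680 with the second control library omitted), at 262 and 253 CPM in the knockouts against 363 and 424 CPM in the controls. Cpd, a carboxypeptidase of the trans-Golgi network, fell by 0.54 ± 0.10 (adjusted p = 0.0131, or 0.0979 with the second control library omitted). Pcsk4, a convertase best known from germ cells, rose by 1.16 ± 0.23 (adjusted p = 0.0142), and no longer passed with the first control omitted (0.0874) or the second (0.0875); the fourth was Pcsk7, which rose by 0.41 ± 0.11 (adjusted p = 0.0374), but at 0.179 and 0.241 with the first and the second control omitted and at 0.0545 with the replicate number as a block. Of the 12 peptide-degrading enzymes, 2 rose and 2 fell. Npepps, an aminopeptidase, fell by 1.07 ± 0.11 (adjusted p = 0.00191), Ide, the insulin-degrading enzyme, rose by 0.71 ± 0.11 (adjusted p = 0.00729), Ece1 rose by 0.50 ± 0.11 (adjusted p = 0.0184) and Ece2 fell by 0.47 ± 0.11 (adjusted p = 0.0258). With the first or the second control omitted, the adjusted p was 0.134 or 0.0818 for Ece1 and 0.194 or 0.129 for Ece2.

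Of 39 other receptors and receptor partners that were tested, 2 rose and 3 fell. Prokr2, the prokineticin receptor 2 gene, fell by 1.91 ± 0.21 (adjusted p = 0.00271), at 2.42 and 2.34 CPM in the knockouts against 9.77 and 8.11 CPM in the controls. Ednrb, an endothelin receptor gene of astrocytes, fell by 0.86 ± 0.13 (adjusted p = 0.00643), and Hcrtr2, an orexin receptor gene, fell by 1.01 ± 0.26 (adjusted p = 0.0341). Hcrtr2 missed the threshold with the first control (0.151), the second control (0.160) or the second knockout omitted (0.0695), and in DESeq2 (0.0997). Ramp2, a partner of the calcitonin-like receptor, rose by 0.84 ± 0.14 (adjusted p = 0.00810, or 0.0612 with the first control library omitted), and Npr1, a natriuretic peptide receptor gene, rose by 1.37 ± 0.32 (adjusted p = 0.0256, and 0.119 or 0.0515 with the first or the second control omitted). Trhr, the receptor gene for the product of Trh, was at 9.11 and 10.3 CPM in the knockouts and 10.1 and 10.1 CPM in the controls (log2 fold change -0.06 ± 0.16, with adjusted p = 0.813). The bombesin receptor genes Grpr (log2 fold change -0.84 ± 0.38, with adjusted p = 0.155) and Nmbr (log2 fold change -0.55 ± 0.38, with adjusted p = 0.338) did not pass.

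Single markers of neighboring regions passed in both directions, and no list was tested as a whole. For this and the following marker lists, the shares over all genes tested are 11.0% lower and 9.39% higher. Slc17a6, a vesicular glutamate transporter gene of thalamic and other subcortical neurons, fell by 2.90 ± 0.25 (adjusted p = 0.00177), at 11.1 and 19.7 CPM in the knockouts against 117 and 111 CPM in the controls. The thalamus and habenula list summed to 51.6 and 71.2 CPM in the knockouts, against 144 and 143 CPM in the controls, with Slc17a6 as 62.9% of it. Of its 7 tested members 1 fell, 2 rose and 4 did not pass, with a median log2 fold change of 0.01. Those that rose were Prkcd (0.74 ± 0.18, adjusted p = 0.0284) and Gpr151 (1.30 ± 0.34, adjusted p = 0.0361). Prkcd missed the threshold with the first control (0.146), the second control (0.0555) or the second knockout omitted (0.0540), and Gpr151 with the first control (0.201) or the first knockout omitted (0.0643). Pou4f1, a habenula marker, gave 1 and 3 reads in the knockouts and 2 and 1 in the controls. Of 8 hypothalamus markers 2 could be tested, Pomc (log2 fold change -0.11 ± 0.39, with adjusted p = 0.872) and Nkx2-1 (log2 fold change -1.12 ± 0.57, with adjusted p = 0.201), and 0 had an unadjusted p under 0.05 in edgeR, limma-voom or DESeq2. That list summed to 1.54 and 1.56 CPM in the knockouts, against 1.67 and 1.25 CPM in the controls, and Sim1 was at 0 in all 4 libraries. Of 7 tested striatum markers, 2 rose and 5 did not pass, with a median of -0.12. Ppp1r1b had the smallest p, at 1.05 ± 0.13 (adjusted p = 0.00335), and made up 65.4% of the sum, which was 128 and 128 CPM in the knockouts, against 86.9 and 59.96 CPM in the controls. The dopamine receptor genes Drd1a, at -0.59 ± 0.38 (adjusted p = 0.310), and Drd2, at -0.64 ± 0.27 (adjusted p = 0.139, or 0.0444 with the first knockout library omitted), did not pass. Of 8 neocortex and amygdala markers, 2 fell, among them Fezf2 at -0.55 ± 0.13 (adjusted p = 0.0241, and 0.103 and 0.128 with the first and the second control omitted), with Bcl11b at 0.07 ± 0.14 (adjusted p = 0.728). This list had a median log2 fold change of -0.39, and summed to 393 and 448 CPM in the knockouts, against 504 and 432 CPM in the controls. Both knockouts lay below both controls for 5 of its 8 markers (against 32.8% of all genes tested) and above both for 1 (against 32.0%). The part of these regions in the levels of Trh, Adcyap1, Gal and the other peptide genes was not tested.

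Of the dentate granule cell markers Dsp had the smallest p, at 1.13 ± 0.14 (adjusted p = 0.00365), while Calb1 had a measured log2 fold change -0.24 ± 0.16, with adjusted p = 0.308. Of 6 CA1 markers, 1 fell, Ndst4 at -1.71 ± 0.13 (adjusted p = 9.70e-04), and Mpped1 did not pass (adjusted p = 0.581). Of 6 markers of excitatory neurons, 2 fell, and Camk2a did not pass (adjusted p = 0.188); the sum was 7797 and 7616 CPM in the knockouts, against 8415 and 9081 CPM in the controls.

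All 6 microglia markers fell, and Tmem119 had the smallest p, at -1.50 ± 0.12 (adjusted p = 0.00111), with Csf1r at -0.90 ± 0.11 (adjusted p = 0.00310) and sums of 113 and 107 CPM in the knockouts, against 242 and 265 CPM in the controls. Of 6 astrocyte markers 2 fell and 4 did not pass, with a median log2 fold change of -0.08. Gfap had the smallest p, at -0.94 ± 0.09 (adjusted p = 0.00151), and made up 37.4% of the sum. That sum was 2455 and 2539 CPM in the knockouts, against 3141 and 3306 CPM in the controls. Of 6 oligodendrocyte markers 3 fell, and Mag had the smallest p, at -0.63 ± 0.10 (adjusted p = 0.00806, or 0.0556 with the second control library omitted), while Mbp did not pass (adjusted p = 0.215); the sum was 3457 and 3719 CPM in the knockouts, against 4158 and 3916 CPM in the controls. Of 6 endothelial markers 1 rose and 1 fell, Flt1 at -0.86 ± 0.12 (adjusted p = 0.00491), and Slco1a4 did not pass (adjusted p = 0.117, or 6.68e-04 with the first knockout library omitted); the sum was 133 and 188 CPM in the knockouts, against 139 and 144 CPM in the controls. Meningeal markers were high in the second knockout library, with sums of 15.7 and 98.8 CPM in the knockouts, against 18.6 and 23.8 CPM in the controls, and 0 of 6 passed, or had an unadjusted p under 0.05, in edgeR, limma-voom or DESeq2. In that list Col1a2 was the most abundant (adjusted p = 0.353) and Col3a1 had the smallest p (0.336), and both passed with the first knockout library omitted (7.80e-07 and 0.00144). Of 5 tested choroid plexus markers 3 rose. Kcne2 gave 18 and 17 reads in the knockouts and 2 and 1 in the controls, a ratio of 12.2 with a 95% counting interval of 3.84 to 61.96 (adjusted p = 0.0105, and 0.0687 and 0.100 with the first and the second control omitted). The Kcne2 interval, too, pools the reads of each group and leaves out the spread between libraries. Kl was at 0.19 ± 0.13 (adjusted p = 0.324). The choroid plexus sum was 49.6 and 64.3 CPM in the knockouts, against 33.9 and 36.3 CPM in the controls. Whether these cell types had a part in the changes of peptide genes was not tested.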

How the data were processed

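For each of the 4 libraries the authors deposited a file of raw counts per gene symbol, ending in 5 tally rows that name no gene. Per the labels' protocols, total RNA libraries were sequenced as 50 bp single-end reads. Per the submitters' processing notes, bcl2fastq, TopHat2 2.0.8b, HTSeq and mm9 were used. The series' design text says that libraries were run in duplicate and reads combined. Nothing on the strand setting, the annotation or the HTSeq version is given in those sources.

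The tally rows, 45.2% and 47.3% of entries in the knockouts and 46.4% and 45.6% in the controls, stayed out of library sizes and tests. CPM was computed with TMM factors (0.984 to 1.01). Counts were filtered with filterByExpr (minimum count 10, minimum total 15) and tested with edgeR 4.0.16 in R 4.3.3 (glmQLFit, robust, legacy=FALSE; glmQLFTest; genotype as the only term), with Benjamini-Hochberg adjustment over all 15011 genes and a threshold of 0.05. SE is the absolute log2 fold change over the square root of F. RPKM used merged exon lengths of GENCODE vM1 on NCBIM37, the assembly behind mm9. Promoter windows came from RefSeq on GRCm38.p6. The steps were tested on simulated counts. Chi-square over its degrees of freedom was 27.2 for the knockout pair and 14.4 for the control pair, above sampling noise. This excess may be technical and does not show that the libraries are separate animals. Each library was counted as 1 sample.

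The 45 genes and the gene lists were chosen with earlier results of these data known. Full values are given for each of the 45 that passed or had an absolute log2 fold change of at least 0.5, for the 3 other neuropeptide genes with the smallest p of each list among those that passed (all, where a list had 5 or fewer), and for the most abundant marker and the marker with the smallest p of each list. Further genes (Trhr, Grpr, Nmbr, Pou4f1, Sim1, Sec11a and Ipcef1, and, named after their values were seen, Prkcd, Gpr151, Drd1a and Drd2) and the RPKM, motif and neighbor descriptions accompany them. Npy4r was not matched. Some items are not reported here. Precursor protein features were planned and not analysed here. The alternatives tried were scaling (RLE, upper quartile), filtering (none, mean CPM of at least 1), estimation (legacy, non-robust), tool (limma-voom 3.58.1, DESeq2 1.42.0), a block on replicate number, and omission of each library.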

Additional observations from a re-analysis of the deposited data

How the results depend on the processing

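Of the 13 neuropeptide genes that passed, all 13 also passed with RLE scaling and 12 with upper-quartile scaling (not Pcsk1), a mean CPM of at least 1 (not Oprm1), no filter, legacy estimation, non-robust estimation or limma-voom (not Nmb in these 4, so 1 gene was higher). DESeq2 kept 10 and added 4 (Vgf, Chgb, Pcsk1n and Sstr4). With each library left out, the number of lower genes ran from 3 to 13 and of higher genes from 0 to 4. Over all genes tested the same fits gave 570 to 2441 lower and 338 to 2376 higher genes, and for other neuropeptide genes 4 to 15 lower and 3 to 12 higher. Compared fit by fit, the larger share of lower genes among the 45 nearly vanished once the second knockout was dropped. It was also small once the first control was dropped. The median log2 fold change of the 45 was -0.0350 with the first control omitted and -0.17 with the second knockout omitted. It was -0.22 with the first knockout omitted and -0.24 with the second control omitted. The log2 ratio of the summed granins was -0.0717 to 0.17, and with upper-quartile scaling that of processing genes was 0.0624 and of receptors 0.0958.

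The replicate number as a block gave 12 of the 13 calls (not Pcsk1) and added Pdyn, Vgf and Pcsk1n, with 12 lower and 3 higher. The numbers were not taken as pairs, because they are not stated to mark a shared litter, batch or day. The correlation of deviations of same-numbered libraries was -0.0165, a single value that cannot decide whether they share one.

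Of the named genes that did not pass, 18 turned sign in at least 1 setting. With a library left out, the log2 fold change ran from -0.15 to 0.10 for Sst, -0.12 to 0.0540 for Vip, -0.20 to 0.00328 for Cck, -0.26 to 0.0280 for Tac1, -0.42 to 0.17 for Penk, -0.12 to 0.30 for Npy1r, -0.22 to 0.00891 for Sstr1, -0.35 to 0.23 for Sstr3, -0.52 to 0.11 for Cckbr, -0.32 to 0.43 for Galr1, -0.14 to 0.0293 for Trhr, -0.0809 to 0.0565 for Sec11a, -0.29 to 0.15 for Ipcef1, -1.05 to 0.0843 for Drd1a, -0.46 to 0.14 for Pomc, -0.12 to 0.25 for Bcl11b, -0.27 to 2.69 for Col1a2 and -0.19 to 1.77 for Col3a1. The last pair was positive without the first knockout library and negative without the second. With upper-quartile scaling Sst was at 0.00207 and Sec11a at 0.00740. The cause was not tested. Depth is low for several named genes, among them Oprm1, Galr1, Ucn2, Kcne2 and Nkx2-1.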
